A study of Eriocheir sinensis with 6 samples.

Results

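Broad accessible regions were taken as the merged ATAC-seq peaks that spanned 2000 bp or more, counted from the first to the last base in the authors' table. They numbered 335 of 104657 merged regions (0.320%), and covered 790 kb, 1.65% of the merged length. The rule used width alone. The limits of a merged region are the outer ends of the peaks called in any of the 6 libraries, so the width rests on where some library had signal, and 1 stage or 1 library could make a region broad. In the peaks of each stage taken alone, 193 of the 335 spanned 2000 bp or more in both stages, 57 pre-molt only, 69 post-molt only and 16 in neither. The regions lay on 130 sequences of the published E. sinensis genome and were linked by the authors to 320 of the 17908 genes in the table.

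The libraries came from muscle of juvenile Chinese mitten crabs (Eriocheir sinensis) weighing 8.41 g on average (± 1.47 g over the crabs used), kept in culture and given no treatment. The series holds 3 libraries of the pre-molt stage (D stages, before the old exoskeleton is shed) and 3 of the post-molt stage (A stages, just after it), and its merged table sets these against each other. The study's methods describe walking-leg muscle and 1 crab per sample, so differences among the libraries of 1 stage include those between animals. Values for single libraries are given in the order of replicates 1, 2 and 3. Whole tissue was used, so a smaller number of nuclei of one cell type and less open chromatin per nucleus cannot be told apart.

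In ATAC-seq the Tn5 transposase inserts sequencing adapters where DNA is not shielded by nucleosomes or other bound proteins, so that reads pile up over promoters and enhancers. A single element usually gives a narrow peak with one point of highest signal, called the summit. Wider stretches form where several elements stand close together, and in mammals such stretches have often been described at strongly used promoters and at clustered enhancers. A genome of the build of these files was not used here, so the regions are given by position and class and not by their bases. The gene IDs could not be paired with gene names.

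The libraries held 41050903 to 51652893 reads, of which 23.8% to 36.7% lay in merged regions. Pre-molt replicate 2 had the highest share in merged regions, 36.7%, against 27.9% in the next library. A median broad region held 890 to 1416 reads per library, so counting error was small beside the spread between crabs. A library of each stage stood apart in the broad regions that changed. Post-molt replicate 2 had the highest summed level in the regions that rose and pre-molt replicate 2 in those that fell, as the values given with these regions show.

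The broad regions were a tail of the width distribution and not a separate group. Their median width was 2236 bp against 347 bp for all merged regions, and 252 of them (75.2%) were narrower than 2500 bp. Only 29 reached 3000 bp and 1 reached 4000 bp. The widest, CM024111.1 from 7720525 to 7724847, spanned 4323 bp in intergenic sequence, 133717 bp from the nearest annotated start site. It held 10 or 11 summits in each of the 6 libraries, the highest total of the set. The next in width lay on the unplaced scaffold JACDRO010000484.1 from 93003 to 96600 (3598 bp) and covered the start site of a gene. At the lower limit, 3 regions of 2001 bp were the narrowest inside the rule and 2 regions of 1999 bp and 1 of 1998 bp the widest outside it. The log2 changes of the 3 inside were -0.08, -0.42 and -0.86, and those of the 3 outside were -0.06, -0.01 and -1.74.

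Promoters were more frequent among broad regions than in the whole table, and introns less frequent, by the authors' classes. The promoter class (within 3000 bp of a transcription start site) held 128 broad regions, or 38.2% against 19.4% of all merged regions. Distal intergenic regions made up 43.0% against 53.2%, introns 10.4% against 20.1%, and exons 6.27% against 4.94%. There were 144 distal, 35 intronic and 21 exonic broad regions, 6 in a 3' UTR, 1 downstream of a gene and none in a 5' UTR. Of the intronic ones, 16 lay in a first intron and 19 in a later one. Of the distal ones, 20 lay within 10 kb of a start site, 84 at 10 to 50 kb and 40 farther away. No enrichment test was made, and a wider region has a larger chance of touching a start site, so these shares describe the regions and were not corrected for width. A start site was covered by 26.3% of the broad regions, 29.5% of the 1358 regions of 1500 to 1999 bp and 6.27% of all. Covering a start site was thus not particular to the broad regions.

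**Figure D1:**
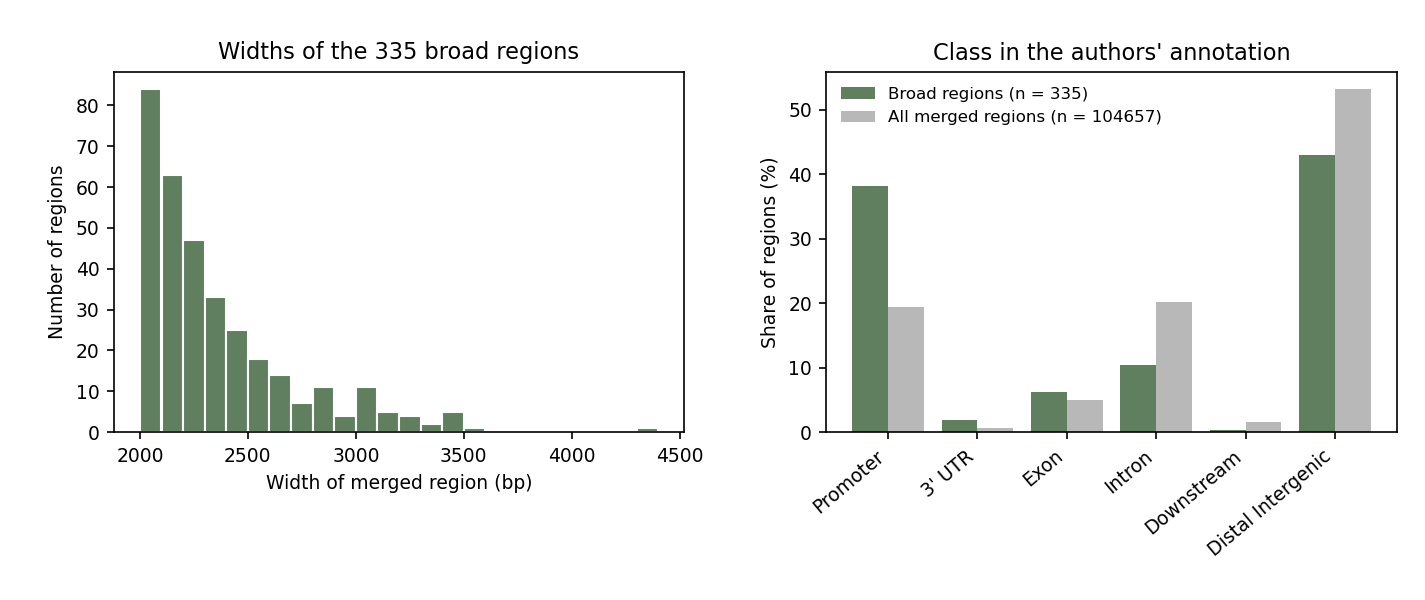
Left, number of broad regions per 100 bp of width (x axis, bp), with most of the 335 regions under 2500 bp and a single one above 4000 bp. Right, share of regions (y axis, %) in each class of the authors' annotation for broad regions and for all 104657 merged regions, with promoters at 38.2% against 19.4% and introns at 10.4% against 20.1%.

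Most promoter-class broad regions lay across the start site. Of the 128, 88 covered it, 15 ended upstream of it and 25 began downstream, while of all promoter regions 32.3% covered the start site, 35.9% lay upstream and 31.8% downstream. These shares were not corrected for width either. Over the 88 covering regions, the median reach was 1253 bp upstream and 1049 bp downstream of the start site. The larger part lay upstream in 51 and downstream in 37, so the regions extended to both sides.

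The strongest summits lay upstream of the start site more often than downstream. In the 88 covering regions, the strongest summit of each region in each library lay at a median of 107.5 bp upstream, and 34.0% of the 524 such summits fell within 200 bp of the start site. Upstream positions made up 62.8% of them, with 60.9% to 65.5% in the single libraries, so both stages showed the same side. Of all 2412 summits in these regions, 53.0% were upstream. A median of 56.2% of the length of a region lay upstream. The regions were chosen for covering the start site, so summits near it follow in part from that choice.

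**Figure D2:**
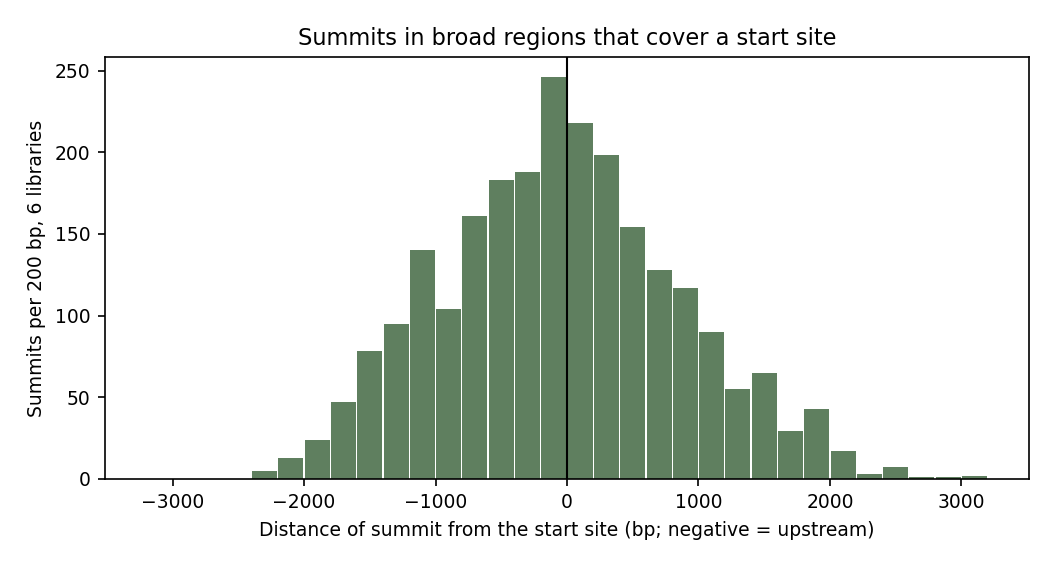
Summits of the 6 peak lists (y axis, number per 200 bp) by distance from the start site (x axis, bp, negative values upstream) in the 88 broad regions that cover one. The bars are highest within 200 bp of the start site and fall off on both sides, with 53.0% of the 2412 summits upstream. All regions shown cover the start site and fewer reach farther out, so this shape follows in part from their choice.

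Some broad regions swallowed a short gene whole. In 28 of them (8.36%, against 0.247% of all merged regions) the linked gene lay entirely inside the region. These genes were 279 to 2433 bp long, with a median of 682.5 bp. A wider region has more room to hold a gene, and the shares were not corrected for width. Across all 320 linked genes the median length was 5822.5 bp, shorter than the 7986 bp of all genes in the table. The linked genes had more regions of any width around them, with a median of 11 merged regions per gene against 3 in the whole table. A gene with more linked regions has more chances to hold a broad one, and this was not corrected for.

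Few genes had more than 1 broad region. There were 12 with 2 or more, holding 27 broad regions in all. On CM024139.1, 1 gene had 3 distal broad regions upstream of its start site, at 7343, 79949 and 95980 bp. On CM024136.1, 1 gene of 14059 bp had a broad region across its start site (8701594 to 8704374) and a second in its last exon (8689240 to 8691243). On CM024135.1, a gene of 39795 bp had a broad region at its start site (12366422 to 12368476) and another in its first intron (12375467 to 12377631). The mean level of the intronic one was 268 CPM (the read count scaled to the library's reads in merged regions with TMM factors), above the 163 CPM at the start site. Pairs of broad regions close to each other were rare, with 6 pairs within 10 kb and 20 within 50 kb.

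The receptor genes that the study follows through the molt cycle, among them the FMRFamide receptor FMRFaR, the glutamate receptor GRM7 and the somatostatin receptor SSTR2, were not among the linked genes. The 10 receptor genes of the list had 140 linked merged regions, none of which reached 2000 bp. Of all merged regions 0.320% were broad, and 320 of 17908 genes had one, so this absence is no trait of the receptor genes. The list includes rhodopsin-like and HTR4, which the study did not retain after its structure predictions. The widest region linked to a receptor gene was 1721 bp, at SSTR2, followed by 1622 bp at moody and 1423 bp at FMRFaR. The study chose these genes in part on the same libraries.

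Broad regions were built of several neighbouring summits. Summed over the 6 peak lists, a broad region held a mean of 26.7 summits against 3.73 for all merged regions, and the 1358 regions just under this width (1500 bp or more) held 18.6. In a single library the mean number was 4.34 to 4.56 per broad region. Neighbouring summits of one library stood a median of 393 bp apart, with the middle 50% of the distances between 293 and 537 bp and library medians between 389 and 398 bp. Within a region and library, the strongest summit exceeded the weakest by a median factor of 1.85 to 2.17 in fold enrichment. The summit number per region did not separate the stages, with 4.47 ± 0.117 pre-molt and 4.43 ± 0.0756 post-molt (SD, n = 3 each, exact permutation p = 0.7, two-sided). With 3 libraries against 3, this test cannot give a p below 0.1. Counting only peaks with a -log10 q of 5 or more, the stages did not overlap, with 3.34 to 3.72 summits per region pre-molt and 3.13 to 3.31 post-molt (exact permutation p = 0.1).

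For many of the regions the full width was reached only when the lists of the libraries were joined. In 180 regions at least 1 library had a single called peak of 2000 bp or more, and in the other 155 (46.3%) no library did. In 88 regions 1 library had such a peak and in 10 regions all 6 did. The regions that needed merging were weaker, with a median mean level of 69.0 CPM against 102 CPM. Broad regions with 1 peak of that width numbered 65, 71 and 68 pre-molt and 45, 72 and 51 post-molt, and the stages overlapped (exact permutation p = 0.4, two-sided). Library peaks covered 74.4%, 76.4% and 74.4% of the length of a broad region on average in the pre-molt libraries and 70.9%, 75.1% and 72.1% in the post-molt ones (exact permutation p = 0.3, two-sided).

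The broad regions were nearly always present in both stages. A peak was called in all 6 libraries in 313 of them (93.4%), against 19.1% of all merged regions. This was not particular to the broad regions, since the share was 93.5% in the 1358 regions of 1500 to 1999 bp. The remaining 22 broad regions had a peak in 3 to 5 libraries. Unplaced scaffolds held 82 broad regions (24.5%), while 7.17% of all merged regions lay there. The chromosome-level sequences held the other 253, on 71 of 72 sequences.

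Per base, broad regions were more strongly open than narrower ones. Their median density was 37.6 CPM per kb against 11.6 over the whole table, and the median of the authors' fold enrichment, which scales reads by region length and a uniform background, was 13.01 against 4.08. The weakest per base lay on CM024131.1 from 2426873 to 2428945 at 8.07 CPM per kb, in intergenic sequence. There, pre-molt replicate 1 had 33.7 CPM and a peak over the whole length, while the other libraries had 7.39 to 18.5 CPM, so the width came from 1 crab.

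With the reads of the 6 libraries pooled, 6.29% of all reads in merged regions fell in the broad ones. By library the share was 6.74%, 5.95% and 7.13% pre-molt, and 6.09%, 5.78% and 6.20% post-molt. The stages overlapped, with means of 6.61% ± 0.603 and 6.03% ± 0.218 (SD, n = 3 each, exact permutation p = 0.3, two-sided). As a share of all library reads, broad regions took 1.61%, 2.18% and 1.99% pre-molt and 1.60%, 1.44% and 1.53% post-molt. Here every pre-molt library was above every post-molt one, although the closest pair, 1.61% and 1.60%, barely differed (exact permutation p = 0.1, two-sided, the smallest possible).

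A large part of those reads came from a single unplaced scaffold. On JACDRO010004310.1, 3 broad regions (30213 to 32350, 32680 to 34859 and 38221 to 40381) held 78917 to 157880 reads each in every library, while the next broad region had a mean of 5819. They made up 34.2% to 49.4% of the reads in broad regions. All 3 were distal intergenic, linked to a gene of 1515 bp whose start site lay 25686 bp or more away, and another broad region of the scaffold covered that start site with a mean of 91.0 CPM. Of the 5 narrower regions of the scaffold from 26845 to 41684, those of 1763 and 1300 bp had means of 82351.5 and 77986.2 reads, below the 92011 to 136814 of the 3 broad ones, and the other 3 had 10808.3 to 22711.2. The log2 changes of the 3 regions were -0.20 to -0.18, with edgeR adjusted p of 0.701 or more. Their sequence was not examined, and whether reads from repeated copies elsewhere in the genome were placed there was not tested.

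Without these 3 regions the broad share of reads in merged regions was higher in every pre-molt library. It was then 3.72%, 3.91% and 3.61% pre-molt and 3.31%, 3.25% and 3.17% post-molt. The means were 3.75% ± 0.154 and 3.25% ± 0.0741 (SD, n = 3 each, exact permutation p = 0.1, two-sided, the smallest possible). This way of counting was chosen after the values were seen. The share also did not overlap at other width limits with all regions kept, at 15.96% to 16.69% pre-molt and 14.13% to 15.00% post-molt for 1500 bp or more and at 0.562% to 0.580% and 0.469% to 0.496% for 3000 bp or more (exact permutation p = 0.1 each). As a share of all library reads the stages overlapped at 1500 bp, with 3.801% in the lowest pre-molt and 3.947% in the highest post-molt library (exact permutation p = 0.2). The median level of a broad region was likewise 92.1, 99.1 and 91.3 CPM pre-molt and 78.6, 83.0 and 74.3 CPM post-molt, again without overlap (exact permutation p = 0.1).

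**Figure D3:**
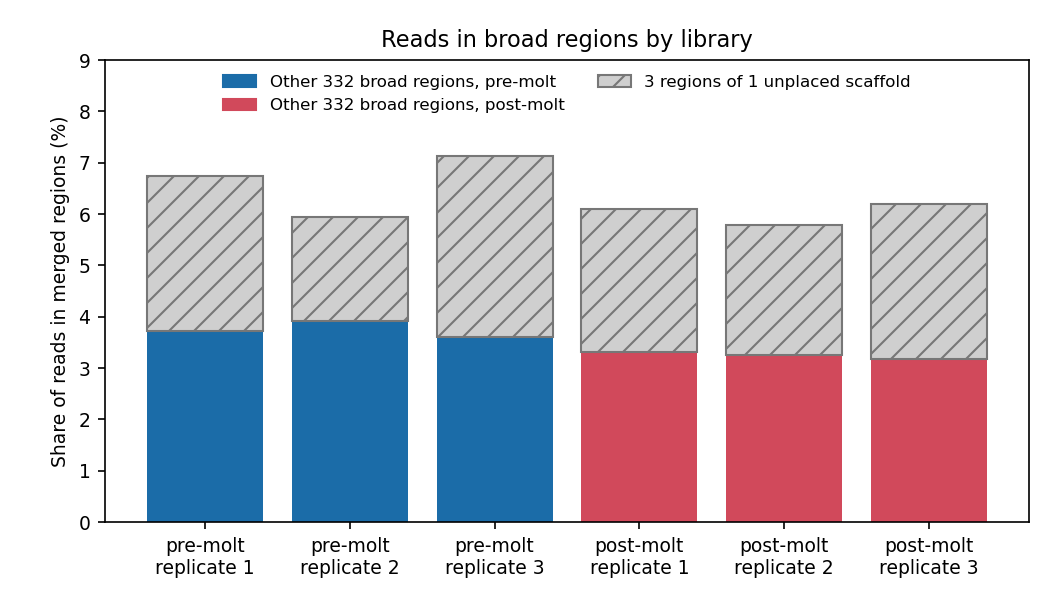
Share of the reads in merged regions that fell in broad regions (y axis, %) for each library. Hatched parts are the 3 regions of scaffold JACDRO010004310.1, and coloured parts the other 332, which took 3.61% to 3.91% in the pre-molt and 3.17% to 3.31% in the post-molt libraries.

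Between the stages, 44 of the 335 broad regions changed in accessibility (13.1%, against 9.95% of all merged regions tested). After the molt 13 were higher (3.88%, against 6.08% of all) and 31 were lower (9.25%, against 3.86%). The test was edgeR's quasi-likelihood test on the counts of all merged regions scaled with TMM, and p-values adjusted over all of them (Benjamini-Hochberg) were called below 0.05. In the 1358 regions just below the width limit (1500 bp or more) 2.06% were higher and 8.69% lower. The median log2 change, post-molt over pre-molt, was -0.25 in broad regions and -0.03 over the whole table, and 254 of the 335 had a value below 0. In 73 broad regions (21.8%, against 12.1% of all) every pre-molt library lay above every post-molt one, and in 21 (6.27%, against 15.0%) every post-molt library lay above. An unadjusted p below 0.05 was found in 24.8% of broad regions and 23.7% of all.

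Most of these calls were in regions that reached 2000 bp in the peaks of 1 stage only. In some the other stage came close, as on CM024149.1 from 6897746 to 6899790, with spans of 2002 bp pre-molt and 1995 bp post-molt. Of the 31 falls, 18 spanned 2000 bp or more in the pre-molt peaks only, 2 in the post-molt peaks only and 8 in both. Of the 13 rises, 7 did so in the post-molt peaks only, none in the pre-molt peaks only and 5 in both. Of the 291 regions without a call, 39 did so in the pre-molt peaks only, 60 in the post-molt peaks only and 180 in both. In the 193 regions that were this wide in each stage, 13 changed (6.74%, against 9.95% of all merged regions), 5 higher and 8 lower, with a median log2 change of -0.22. The share of calls in the 335 is thus not independent of how the regions were delimited. This split was made after the values were seen.

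The direction of change varied with the strength of the signal and with the scaling. With all merged regions in 20 bins of level, the median log2 change lay between -0.00 and 0.09 in the bins up to a median of 6.85 CPM and was below 0 from the bin at 8.16 CPM on, down to -0.25 in the 5233 regions of 20.2 to 32.8 CPM and -0.38 in the 5233 strongest. In those strongest regions, which included 298 of the broad ones, 1.26% were higher and 12.9% lower. Offsets fitted to the trend of change with level (loess) left a median of -0.19 in the weakest bin and -0.00 in the strongest. With them, 59 broad regions were called (17.6%, against 8.88% of all). Of these, 33 were higher (9.85%, against 5.27% of all) and 26 lower (7.76%, against 3.62%), and the median log2 change was 0.15. All 13 rises and 26 of the 31 falls found with TMM were among those calls. The direction of the broad regions as a set thus reversed with the scaling. Scaling to library totals left 28 called (8.36%, against 8.17% of all), 6 higher and 22 lower.

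The number of calls also depended on single libraries. Without post-molt replicate 2 there were 14 calls (4.18%, against 3.82% of all merged regions), 4 higher and 10 lower, and without post-molt replicate 3 there were 20 (5.97%, against 6.79%), 7 higher and 13 lower. Without post-molt replicate 1 there were 28 (8.36%, against 8.40%), 6 of them higher. Without pre-molt replicate 1 there were 38 (11.3%, against 8.34%) and without pre-molt replicate 3 there were 31 (9.25%, against 5.62%), 5 of them higher. Without pre-molt replicate 2 there were 66 (19.7%, against 6.47%), 21 higher and 45 lower. In each of these the stage with a library left out rested on 2 crabs.

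**Figure D4:**
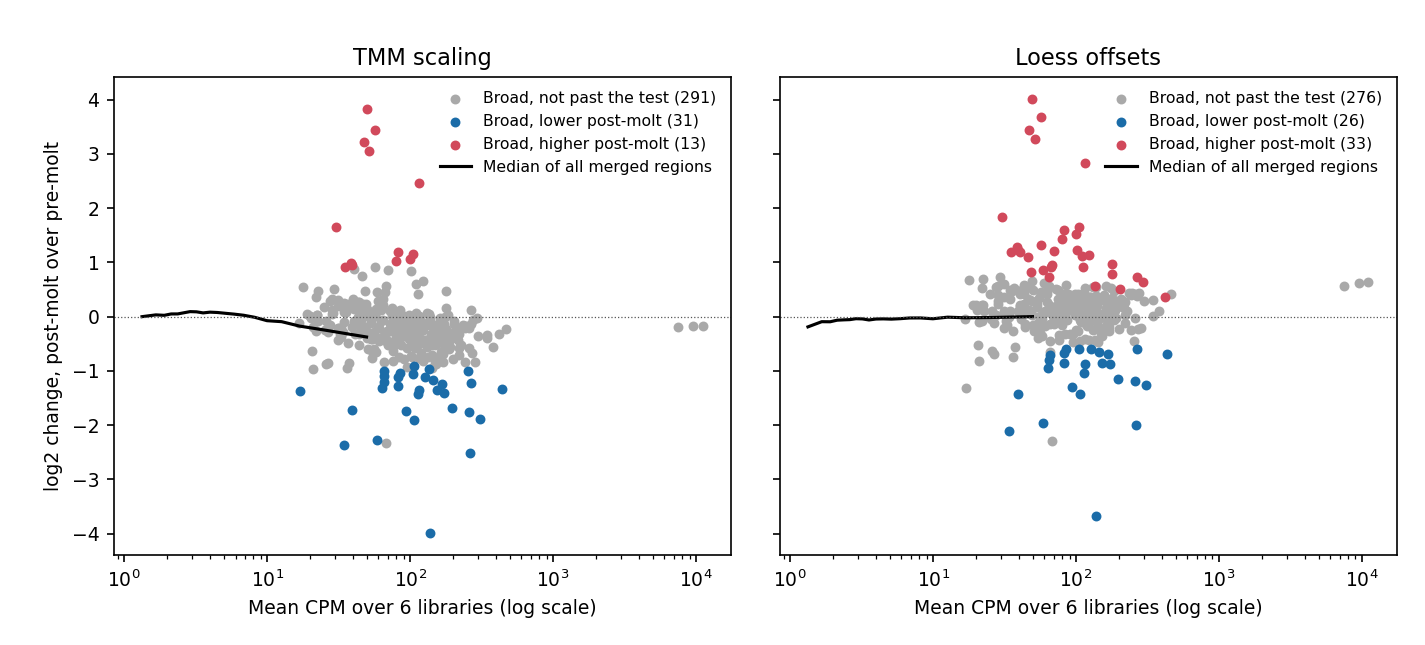
log2 change, post-molt over pre-molt (y axis), against mean CPM over the 6 libraries (x axis, log scale) for each broad region, with TMM scaling on the left and loess offsets on the right. Colours mark regions past the test, and the black line is the median of all merged regions in 20 bins of level. With TMM it falls to -0.38, and with loess offsets it goes from -0.19 in the weakest bin to -0.00 in the strongest. The 13 higher and 31 lower regions with TMM become 33 and 26 with loess offsets.

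The 13 regions that rose had log2 changes from 0.92 to 3.83. In 4 of them no pre-molt list held a peak, and the level rose 8.24-fold to 14.2-fold. The next 2, both on CM024166.1 (5503502 to 5505638 and 5517392 to 5519435, 11754 bp apart), had log2 changes of 2.47 and 1.65, but a post-molt library overlapped the pre-molt ones. The other 7 had log2 changes between 0.92 and 1.19.

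The largest rise was on CM024135.1 from 28843492 to 28845865, in intergenic sequence 34390 bp upstream of the nearest start site. Its levels were 7.06, 3.29 and 9.22 CPM pre-molt and 56.8, 166 and 55.3 CPM post-molt. Every post-molt crab was far above every pre-molt one, and post-molt replicate 2 stood well above the rest. The log2 change was 3.83 ± 0.45 (SE, edgeR adjusted p = 7.46e-05). The single peak of 2374 bp that made it broad was called in post-molt replicate 2 only, while peaks covered 53.7% and 59.4% of it in the other post-molt libraries.

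On CM024122.1 a promoter-class region from 115224 to 118245 began 764 bp inside a very long gene (218963 bp, evm.TU.CM024122.1.9). It held 11.4, 7.42 and 9.92 CPM pre-molt and 54.7, 199 and 57.8 CPM post-molt. The groups did not overlap, with a log2 change of 3.44 ± 0.44 (SE, edgeR adjusted p = 0.000107).

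On CM024158.1 from 11158596 to 11161104, 31057 bp downstream of a start site, the levels were 10.4, 6.44 and 10.7 CPM pre-molt and 31.4, 169 and 55.1 CPM post-molt. The post-molt crabs differed widely among themselves here, but all lay above the pre-molt ones. The log2 change was 3.22 ± 0.47 (SE, edgeR adjusted p = 0.000342).

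On CM024146.1 the region from 21059911 to 21062670 held the whole of a gene of 558 bp (evm.TU.CM024146.1.608) and 2042 bp upstream of its start site. Levels of 12.3, 7.70 and 13.7 CPM pre-molt stood against 59.3, 163 and 54.5 CPM post-molt, without overlap. The log2 change was 3.04 ± 0.41 (SE, edgeR adjusted p = 0.000169). Post-molt replicate 2 had 9 summits along its full length, and the other post-molt libraries had 1 each, over 10.8% and 11.7% of it.

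These 4 regions passed the test under all 15 alternative fits. Each reached 2000 bp in a single peak of post-molt replicate 2 and of no other library, and none had a pre-molt peak. The p-values and all 15 fits were thus made on regions that the higher stage had helped to choose, and are no independent support. The remaining 9 rises kept the call under 4 to 14 of the 15 fits, 5 of them under 4 to 6 only. Among these, the largest change without overlap was on CM024149.1 from 2727707 to 2729770, a distal region with 44.8, 61.9 and 43.1 CPM pre-molt and 128, 111 and 102 CPM post-molt. Its log2 change was 1.19 ± 0.29 (SE, edgeR adjusted p = 0.0122), and here post-molt replicate 1 was the highest library. The others that rose without overlap included an exonic region on CM024102.1 (log2 change 1.15), a promoter region on CM024119.1 that covered a start site (1.06), intronic regions on CM024133.1 (1.02) and CM024114.1 (1.00), and a distal one on CM024157.1 (0.95).

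In all 31 regions that fell, every pre-molt library lay above every post-molt one, as in 12.1% of all merged regions, called or not. A region called lower is likely to be separated in this way, so this is no separate support. The levels of the 31 regions summed to 5579, 8228 and 5235 CPM pre-molt and to 2498, 2161 and 2193 CPM post-molt. In the 13 that rose the sums were 396, 447 and 345 CPM pre-molt and 945, 1876 and 970 CPM post-molt. Pre-molt replicate 2 was thus the highest library in the falls and post-molt replicate 2 in the rises. The part that the larger share of reads in merged regions in pre-molt replicate 2 had in the falls was not tested.

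The largest fall was at the promoter-class region on CM024112.1 from 6972059 to 6974159, which began 846 bp downstream of the start site of a gene of 1962 bp (evm.TU.CM024112.1.203). The levels were 447, 216 and 118 CPM pre-molt and 14.5, 20.0 and 14.5 CPM post-molt. The pre-molt crabs differed widely among themselves, yet the lowest stood far above every post-molt crab. The log2 change was -3.99 ± 0.42 (SE, edgeR adjusted p = 3.59e-05), a 15.9-fold lower level. Each pre-molt library had 5 or 6 summits there, and no post-molt library had a peak.

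A region on CM024096.1 from 13501572 to 13504221, 2611 bp downstream of a start site, held 335, 532 and 465 CPM pre-molt and 93.6, 68.3 and 70.9 CPM post-molt. The stages were well separated, with a log2 change of -2.52 ± 0.31 (SE, edgeR adjusted p = 8.25e-05). In pre-molt replicate 2 it was 1 peak over its full 2650 bp, and post-molt replicate 3 alone of its stage had a peak, over 13.2% of the length.

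On CM024103.1 a distal region from 9049215 to 9051449, 48284 bp from a start site, held 31.6, 93.0 and 47.1 CPM pre-molt and 16.5, 8.83 and 8.02 CPM post-molt. It had no post-molt peak, and its log2 change was -2.36 ± 0.39 (SE, edgeR adjusted p = 0.000836). An intronic region on CM024119.1 (20478243 to 20480691, intron 6 of 12) went from 109, 118 and 63.9 CPM to 24.2, 15.4 and 20.5 CPM, with a log2 change of -2.28. In both, the lowest pre-molt library was above the highest post-molt one.

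The widest region that changed was on CM024127.1 from 16252801 to 16256281, 3481 bp and the third widest of all. It held a complete gene of 2433 bp (evm.TU.CM024127.1.520). Levels of 332, 594 and 277 CPM pre-molt stood against 190, 83.0 and 82.9 CPM post-molt, so post-molt replicate 1 was between the others of its stage and the pre-molt crabs. The log2 change was -1.76 ± 0.36 (SE, edgeR adjusted p = 0.00378), and without post-molt replicate 2 the call was lost at a log2 change of -1.56. Peaks covered 85.5%, 90.6% and 73.6% of its length pre-molt and 72.7%, 32.9% and 32.3% post-molt. Of the 10 widest regions, no other one passed the test.

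The other named falls were promoter regions across a start site on CM024101.1 (3014842 to 3016897, log2 change -1.91), CM024117.1 (5216594 to 5219022, -1.88) and CM024131.1 (6862122 to 6864938, -1.69), each of which held a short gene whole, of 853, 279 and 375 bp. On CM024160.1, a region in a 3' UTR (16552524 to 16554618) and a distal one (1185825 to 1187908) had log2 changes of -1.75 and -1.72. Of the 31 falls, 9 passed the test under all 15 alternative fits, and these were the 10 named here without the CM024127.1 region. Most of these 9 spanned 2000 bp or more in the pre-molt peaks only. The fits were thus made on regions that the higher stage had helped to choose, and are no independent support.

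**Figure D5:**
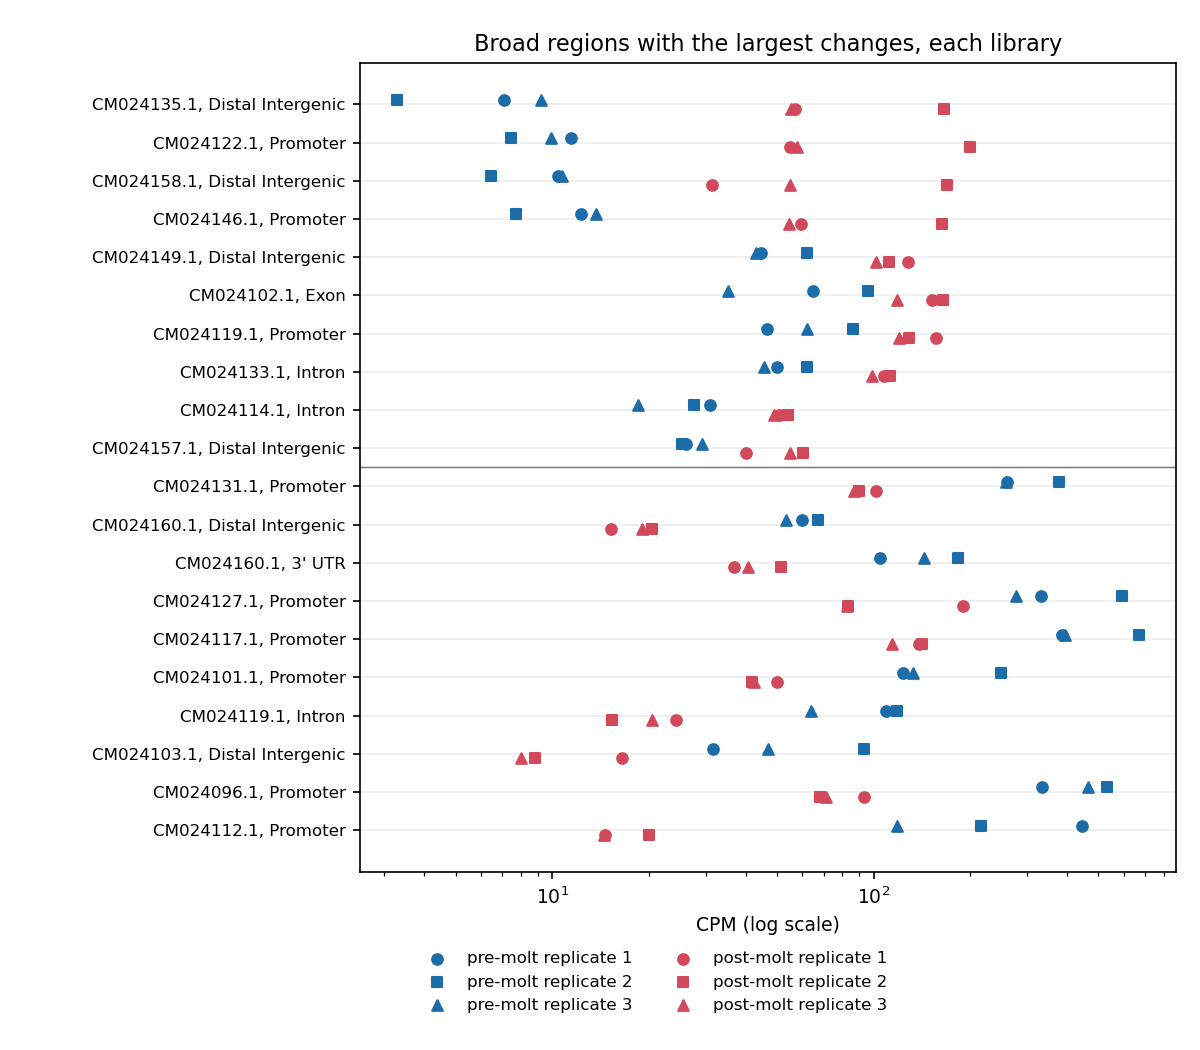
Level in each library (x axis, CPM, log scale) for the 10 largest rises (above the line) and the 10 largest falls (below it) whose stages did not overlap, named by sequence and class. Blue marks are pre-molt and red marks post-molt libraries, with a shape for each replicate, and post-molt replicate 2 stands to the right of the other libraries in the top 4 rises.

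The limits of the regions were drawn from the same peaks, so the length under peaks in each library describes the changed regions and is no evidence apart from their level and width. In the 13 rises, peaks covered a mean of 35.04%, 38.3% and 30.2% of the length in the pre-molt libraries and 60.5%, 90.7% and 66.8% in the post-molt ones. A single peak of 2000 bp or more was called in 8 of them in post-molt replicate 2, in 1 in post-molt replicate 1 and in none elsewhere. In the 31 falls, coverage was 76.7%, 90.5% and 79.9% pre-molt and 49.3%, 50.7% and 49.2% post-molt. A single such peak was called in 4, 14 and 8 of them pre-molt and in 2, 1 and 1 post-molt. In the 291 regions without a call, coverage was 73.7% to 77.0% in all libraries.

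Narrower regions nearby were often called in the same direction as a changed broad region. Within 10 kb of the 13 rises there were 62 narrower merged regions, counted once for each broad region, of which 38 (61.3%) were higher post-molt and 1 was lower. Within 10 kb of the 31 falls there were 137, of which 51 (37.2%) were lower and 4 higher. Around the broad regions without a call, 40 of 1001 neighbours were higher and 42 lower. The 4 largest rises all had such neighbours, with 4 of 4 higher at the CM024135.1 region and 4 of 5 at both the CM024122.1 and the CM024146.1 regions. At the largest fall, on CM024112.1, 8 of 9 neighbours were lower. By contrast, 3 of the smaller rises (on CM024119.1, CM024133.1 and CM024157.1) had neighbours of which none was called in either direction. Neighbours share libraries and scaling with the broad region, so these counts describe stretches and are no separate evidence.

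The share of changed regions varied with class and place. Calls were made in 16 of 128 promoter regions (12.5%, against 8.45% of all merged regions of that class), 4 of them higher and 12 lower. Distal regions had 12 calls in 144 (8.33%, against 9.52%), 5 higher and 7 lower. Intronic ones had 8 in 35 (22.9%, against 13.2%), 2 higher and 6 lower, and exonic ones 7 in 21 (33.3%, against 7.12%), 2 higher and 5 lower. In a 3' UTR 1 of 6 was called (16.7%, against 11.8%), and it was lower. None of the 40 distal regions more than 50 kb from a start site was called, against 8.57% of all merged regions of that kind. On unplaced scaffolds 2 of 82 broad regions were called (2.44%, against 1.01% of all merged regions there), and on chromosome-level sequences 42 of 253 (16.6%, against 10.6%). Of the 22 broad regions without a peak in every library, 11 changed (50%, against 10.4% of all merged regions of that kind), and of the 313 with one, 33 did (10.54%, against 8.18%). The 22 had a median level of 37.1 CPM, while that kind made up 80.9% of the table, whose median was 4.22 CPM. Regions of unlike strength were thus compared. A strong region that lacks a peak in 1 stage is also likely to differ in level. The differences between these classes were not tested.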

How the data were processed

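The authors aligned 150 bp paired reads with BWA and called peaks with MACS2, as the submitters' processing notes name them. The notes name no versions, and the Tn5 shift and the merging are not given in the sources used here. For molt libraries the study's methods describe a mapping quality of at least 13 and kept duplicates, so PCR copies may count as reads. The deposited merged table holds whole-number read counts per library, used unfiltered for the tests. Its RPM values, which the authors computed from the count plus 1, gave library totals, and its fold enrichment, a ratio of RPM per base to a uniform background computed by the authors, served the limma alternatives. The authors' deposited peak lists hold MACS2 scores, fold enrichment signal and -log10 p and q values per summit, and rows differing only in summit were collapsed. The deposited log2 fold change, p-value and q-value columns hold the authors' own comparison and were not used.

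In all 335 regions the limits and summits matched the 6 lists, and the peak flags matched the list filed under the same sample in 100% of regions. A list filed under another sample matched in up to 98.8%, so few regions set the lists apart. Peak names inside the lists carry other library numbers than the sample titles, and the filing was followed. Tests used edgeR 4.0.16 (R 4.3.3) with TMM on all 104657 merged regions, no block and SEs taken from the change and its F statistic. The code was tested on simulated data. Alternatives were DESeq2 1.42.0 size factors and test, library totals, median centring, loess offsets (span 0.3), limma 3.58.1 on log2(fold enrichment + 0.5) and + 1, filterByExpr, a replicate block, each library left out, widths of 1500 and 3000 bp, and a -log10 q of at least 5. Per-library values were compared by exact permutation in Python 3.11.15 with scipy 1.17.1.

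Named were the 10 widest, the 10 largest rises and falls with a call and no overlap of stages, the 5 densest and thinnest per kb, the 5 with most summits, genes with several broad regions, receptor genes and the regions at the 2000 bp limit. Members and lists were chosen with earlier results of these data known. Coordinates are 1-based. Of the gene IDs, 0 matched the reference table of another assembly. Sequences are not shown.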

Additional observations from a re-analysis of the deposited data

Results flagged for a closer look

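Peaks of 2000 bp or more also stood on scaffolds that the merged table does not hold, and so entered no comparison. The single-library lists held 56, 34 and 33 of them pre-molt and 30, 42 and 41 post-molt (replicates 1, 2 and 3 of each stage), with no control libraries to set them against. The stages overlapped (means of 41 ± 13 and 37.7 ± 6.66, SD, n = 3 each, exact permutation p = 0.8, two-sided). Such peaks were 0.403% to 0.623% of the peaks outside the table and 0.0931% to 0.136% of those inside it.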

How the results depend on the processing

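The median log2 change of broad regions kept its sign except with loess offsets, where it was 0.15. With single libraries left out it was -0.29 to -0.21, the calls numbered 14 to 66, the higher ones 4 to 21 and the lower ones 10 to 45. Library totals gave 28 calls (8.36%, against 8.17% of all merged regions), 6 of them higher. Limma with + 0.5 gave 30 (8.96%, against 7.61%) and with + 1 gave 29 (8.66%, against 7.53%), 8 of them higher in each. Loess offsets gave 59 (17.6%, against 8.88%), 33 of them higher. The numbers of replicates did not pair the libraries (correlations of the deviations -0.0881, -0.104 and -0.0328). With the replicate block 31 regions were called (9.25%, against 8.64% of all merged regions), 8 of them higher. At 1500 bp or more there were 1693 regions, with 190 calls (11.2%, against 9.95% of all merged regions), 41 higher and 149 lower. At 3000 bp there were 29 regions with 3 calls (10.3%, against the same 9.95%), 1 higher and 2 lower. The stage difference of summits per region (post-molt minus pre-molt, -0.0428) was -0.109 to 0.000995 with single libraries left out, the last without pre-molt replicate 2, and 0.483 at 3000 bp. At that width the difference in covered length was 0.518 percentage points and in single-library peaks 0.333. On chromosome-level sequences alone 42 were called, and in the 193 regions of 2000 bp or more in the peaks of each stage alone 13 were (5 higher, 8 lower), both added after the data were seen. For single named regions, 709 results kept their side of the threshold, 66 lost and 5 gained the call, and no called one changed sign. Causes were not tested. Depth limited little here, since a median broad region held 890 reads or more per library, but 3 crabs per stage limited every comparison.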
